A study of Rattus norvegicus with 18 samples.

Results

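The 8 genes described here are transcripts of T cells and cytotoxic lymphocytes measured in whole kidney: Cd3d (ENSMUSG00000032094), Cd3e (ENSMUSG00000032093), Cd3g (ENSMUSG00000002033), Cd4 (ENSMUSG00000023274), Cd8a (ENSMUSG00000053977), Lck (ENSMUSG00000000409), Nkg7 (ENSMUSG00000004612) and Ccl5 (ENSMUSG00000035042). They were chosen by their identifiers in the deposited table of 55335 genes, and all 8 had a row in it. The rule used no values of these genes, but it was set with earlier results of these data known. All 8 also passed the filter on low counts, which left 19233 genes for testing. Polyadenylated RNA was sequenced from 18 kidneys that the labels describe as Rattus norvegicus, in 3 groups of 6. Control animals (Ctrl) received ordinary feed and solvent by gavage. Animals of the diabetic nephropathy model (DN) received a high-fat diet and an injection of STZ (streptozotocin, a toxin of insulin-producing beta cells). Treated animals (Treat) were made diabetic in the same way and then dosed orally with TSK, an abbreviation that the labels do not spell out, at 500 mg/kg each day for 4 weeks. Strain and age are not given in the labels used here. Nothing in the labels describes a batch.

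CD3 gamma, delta and epsilon are the invariant chains that carry the signal of the T cell receptor into the cell, and their transcripts are used as general markers of T cells. CD4 and CD8 are the coreceptors that divide helper from cytotoxic T cells, and LCK is the kinase that they bring to the receptor. NKG7 is a protein of the lytic granules of natural killer cells and cytotoxic T cells, and CCL5 (RANTES) is a chemokine that attracts T cells and monocytes. Infiltration of the kidney by T cells and macrophages has been described in diabetic nephropathy. In bulk tissue, fewer cells of a type cannot be told apart from less RNA per cell.

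Library totals ranged from 22040987 to 35275498 counts, and the 8 genes were low in this depth of sequencing, with 4 to 193 counts per library. Levels are given as CPM, which are counts divided by TMM-scaled library totals. The smallest count, 4 for Nkg7 in control library 2, has an exact 95% Poisson interval of 1.09 to 10.2 counts, and the largest, 193 for Cd8a in control library 1, one of 166.7 to 222.2. These intervals cover counting error only. Control library 1 stood apart for these genes, with the highest value of the control group for all 8. For 6 of them (all but Nkg7 and Ccl5) its distance from the next control passed Dixon's 95% critical value, and results against the controls are therefore given with and without it. It was not the library that differed most across all genes: it lay far above the other controls for 1.85% of the 19233 genes, against 5.07% for control library 4 and 0.385% to 1.24% for the other 4. Control library 4 differed in another way. By at least 20-fold, 6 genes separated the other 5 controls from library 4 together with the 12 DN and treated libraries. With control library 1 in the place of library 4 the number was 1, and with any other control it was 0. The identifiers of these 6 genes, picked out after their values had been seen, are paired with no name in the tables used here. ENSMUSG00000086503 stood at 1405 to 1692 CPM in the other 5 controls and at 0.839 CPM in library 4, with at most 1.45 CPM in DN and Treat. The other 5 genes ran the opposite way, such as ENSMUSG00000069045 with 0 counts in the 5 controls, 124.3 CPM in library 4 and 80.5 to 120.1 CPM in DN and Treat. The labels do not give the sex of the animals, and whether this division follows sex was not tested. In values against Ctrl, any difference in sex between those 5 controls and the other groups cannot be told apart from diet and STZ. Values that rest on control library 4 alone do not carry this division, but they come from 1 library. Markers of other cell types could not be read, because the identifiers are mouse identifiers and 0 of the 120 symbols of the 10 marker lists could be matched to them, so neither the kidney nor the T cell label could be checked in that way.

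The promoters of the CD3 genes and of Lck are shown because the 3 chains are subunits of 1 complex and Lck was the member ranked nearest to their mean, as described further on. They are the RefSeq promoters of the rat (assembly GRCr8), from 250 bases before to 50 bases after the transcription start, and 6 of the 8 genes have an entry in that table, which does not hold Cd4 and Ccl5. The counts were made on a mouse build, so these are the sequences of the labelled species and not of the counted reference. Lck has a pair of entries, and the gene is known to have a distal and a proximal promoter. Capitals mark matches on either strand to AGGAAG (a core sequence of ETS factors), TGTGGT (RUNX factors) and CAGGTG (an E-box), and no match overlapped another.
Cd3d, chr8:54185269-54185568, plus strand: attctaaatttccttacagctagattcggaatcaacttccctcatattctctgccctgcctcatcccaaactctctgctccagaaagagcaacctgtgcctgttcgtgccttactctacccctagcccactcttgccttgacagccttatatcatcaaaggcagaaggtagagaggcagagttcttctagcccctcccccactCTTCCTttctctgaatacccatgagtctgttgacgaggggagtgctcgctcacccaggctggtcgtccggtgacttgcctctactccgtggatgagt
Cd3e, chr8:54211721-54212020, minus strand: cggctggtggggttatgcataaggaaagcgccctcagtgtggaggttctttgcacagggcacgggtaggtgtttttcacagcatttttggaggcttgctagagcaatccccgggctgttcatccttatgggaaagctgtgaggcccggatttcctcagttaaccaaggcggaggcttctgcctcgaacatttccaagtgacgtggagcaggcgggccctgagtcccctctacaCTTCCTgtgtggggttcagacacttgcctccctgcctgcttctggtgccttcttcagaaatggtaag
Cd3g, chr8:54183869-54184168, minus strand: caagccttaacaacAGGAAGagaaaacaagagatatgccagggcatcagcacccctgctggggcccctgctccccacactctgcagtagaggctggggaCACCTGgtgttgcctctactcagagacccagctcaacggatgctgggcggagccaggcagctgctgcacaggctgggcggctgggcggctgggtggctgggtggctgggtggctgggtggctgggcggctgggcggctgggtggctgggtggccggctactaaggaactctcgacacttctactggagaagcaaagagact
Lck, first entry, chr5:147183601-147183900, minus strand: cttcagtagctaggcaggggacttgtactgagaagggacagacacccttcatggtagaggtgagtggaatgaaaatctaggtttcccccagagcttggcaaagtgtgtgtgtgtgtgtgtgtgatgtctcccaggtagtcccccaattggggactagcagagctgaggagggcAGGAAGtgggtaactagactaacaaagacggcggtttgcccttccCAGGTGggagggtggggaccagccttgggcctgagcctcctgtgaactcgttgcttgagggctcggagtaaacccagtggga
Lck, second entry, chr5:147201218-147201517, minus strand: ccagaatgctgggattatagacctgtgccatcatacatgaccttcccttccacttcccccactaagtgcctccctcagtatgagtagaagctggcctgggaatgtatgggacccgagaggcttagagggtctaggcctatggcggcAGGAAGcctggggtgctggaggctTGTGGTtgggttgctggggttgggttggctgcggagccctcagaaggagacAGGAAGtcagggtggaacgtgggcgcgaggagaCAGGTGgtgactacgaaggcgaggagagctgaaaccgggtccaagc
Each of the 5 sequences holds the ETS core at least once, and the second entry of Lck holds it 2 times. Among all 33469 promoters in the table, 34.5% hold the ETS core, 17.3% the RUNX core and 18.8% the E-box. The E-box occurs once in Cd3g and once in each entry of Lck, and among these 5 the RUNX core occurs only in the second entry of Lck. Of the other members with an entry, Cd8a holds 0 matches to any of the 3 motifs, and Nkg7 holds the ETS core once and the RUNX core once. These are matches of letters in a window, and binding was not measured. In the same assembly Cd3g, Cd3d and Cd3e follow each other with no gene between them and without overlap. Whether the authors' counting used strand is not given in the sources used here.

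The comparison of DN with Ctrl asks which of these genes differed in the kidney of the diabetic model. Ccl5 was higher in DN, by 3.34-fold, and no other of the 8 genes was called with all libraries in edgeR or DESeq2. The T cell receptor genes, Cd4 and Lck had control medians below the lowest DN library, but control library 1 lay above the DN median for each of them, and none was called. Across all 19233 genes 32.2% were called in this comparison and 16.9% were called higher, so that 1 of 8 is no larger a share than the background. The median log2 fold change of the 8 genes was 0.65, against 0.01 over all genes tested. By limma voom, which weighs each library by its quality, 5 of the 8 were called higher over the same libraries (Cd3e, Cd3g, Cd4, Lck and Ccl5), where that test called 19.9% of all genes higher.

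Ccl5 had 0.269 CPM in the lowest control library, a median of 0.548 and 1.23 in the highest. In DN the lowest, median and highest values were 1.77, 2.12 and 2.30 CPM. All 6 DN libraries were above all 6 controls, control library 1 included, which was the case for 8.34% of all genes in this direction. The log2 fold change was 1.74 (SE 0.38, 95% interval 0.94 to 2.54), with an adjusted p = 0.00214 in edgeR's quasi-likelihood test after Benjamini-Hochberg correction over all genes. The DN libraries were close together, at 2.05 ± 0.22 CPM (SD, n = 6), against 0.615 ± 0.394 in the controls. Without control library 1 Ccl5 rose by 2.06 on this scale (edgeR adjusted p = 0.000743).

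Among the chains of the T cell receptor complex, Cd3g had 0.417 CPM in the lowest control, a median of 1.05 and 5.63 in the highest, which was control library 1. Its DN libraries ranged from 2.21 to 3.95 CPM with a median of 3.18. The 5 other controls, at 1.35 CPM or less, were all below the lowest DN library, while control library 1 was above the highest. Cd3e ranged from 0.239 to 2.89 CPM in the controls (median 0.402) and from 0.779 to 1.82 CPM in DN (median 1.19). The 5 controls other than library 1 reached 0.739 CPM and again did not overlap with DN. Cd3d ranged from 0.288 to 3.64 CPM in the controls (median 0.412) and from 0.588 to 1.71 CPM in DN (median 1.25). Here control library 6, at 0.628 CPM, overlapped with DN library 4, the lowest of its group. With all libraries the log2 fold changes were 0.86 for Cd3g (SE 0.48, edgeR adjusted p = 0.176), 0.55 for Cd3e (SE 0.50, adjusted p = 0.421) and 0.37 for Cd3d (SE 0.55, adjusted p = 0.630).

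**Figure D1:**
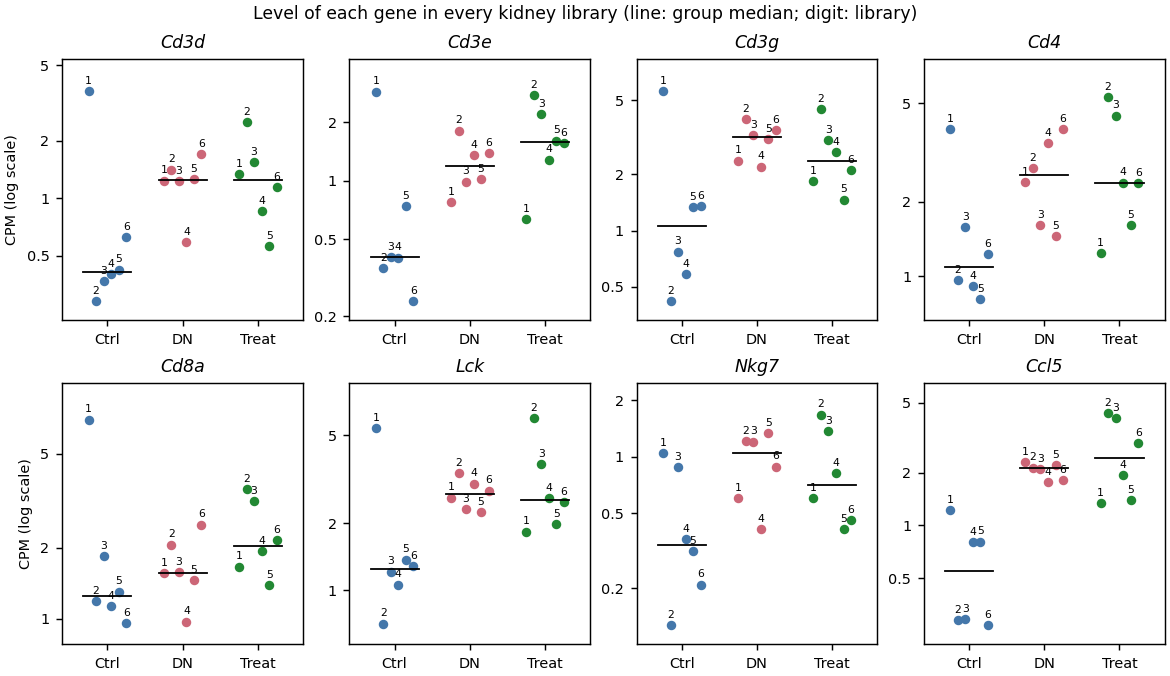
Level of each of the 8 genes in every library, in CPM on a log axis, for the control (Ctrl), diabetic (DN) and treated (Treat) groups. Points are libraries with their number and the line is the group median; control library 1 is the highest control in every panel, and treated libraries 2 and 3 are the highest of their group.

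The coreceptors differed from each other. Cd4 ranged from 0.809 to 3.93 CPM in the controls (median 1.09) and from 1.46 to 3.92 CPM in DN (median 2.58). Control library 1 was level with the highest DN library, and control library 3, at 1.58 CPM, was above the lowest. Cd8a ranged from 0.957 to 6.96 CPM in the controls (median 1.24) and from 0.971 to 2.50 CPM in DN (median 1.57), so that the groups overlapped over most of the DN range even without control library 1. The log2 fold change was 0.73 for Cd4 (SE 0.42, edgeR adjusted p = 0.191) and -0.40 for Cd8a (SE 0.43, adjusted p = 0.507), and that of Cd8a was the only negative one among the 8.

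Lck, the kinase of both coreceptors, ranged from 0.705 to 5.41 CPM in the controls (median 1.25) and from 2.24 to 3.39 CPM in DN (median 2.72). Its 5 controls other than library 1 reached 1.37 CPM and did not overlap with DN. The log2 fold change over all libraries was 0.57 (SE 0.41, edgeR adjusted p = 0.296). Nkg7 ranged from 0.128 to 1.05 CPM in the controls (median 0.341) and from 0.412 to 1.34 CPM in DN (median 1.05). Control library 3, at 0.880 CPM, lay within the DN range as well as library 1, and the log2 fold change was 0.94 (SE 0.48, adjusted p = 0.140). Nkg7 had only 4 to 29 counts in the controls.

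Leaving out control library 1 changed the comparison for most of these genes. The library was singled out after its values had been seen, as 1 of the 18 libraries left out in turn. It was the highest control for all 8 genes, so leaving it out lowered the control mean of each. The p-values do not allow for this choice. All genes were not chosen in this way, so their shares below are not a like comparison for the 8. With control library 1 left out, 6 of the 8 genes were called higher in DN, namely Cd3d, Cd3e, Cd3g, Cd4, Lck and Ccl5. Of all genes tested, 15.8% were called higher. The groups did not overlap for 4 of the 8 (Cd3e, Cd3g, Lck and Ccl5), against 9.86% of all genes. Cd3g rose by 1.77 on the log2 scale (95% interval 1.07 to 2.46, edgeR adjusted p = 0.000786), Cd3d by 1.54 (0.79 to 2.29, adjusted p = 0.00383) and Cd3e by 1.52 (0.76 to 2.27, adjusted p = 0.00461). Lck rose by 1.28 (0.68 to 1.87, adjusted p = 0.00286) and Cd4 by 1.24 (0.46 to 2.02, adjusted p = 0.0179). Cd8a had a log2 fold change of 0.39 (-0.19 to 0.98, adjusted p = 0.301) and Nkg7 one of 1.31 (0.29 to 2.34, adjusted p = 0.0508), and neither was called. The median log2 fold change of the 8 genes was 1.41, against 0.01 over all genes. No other library changed the number of these genes called in DN versus Ctrl when it was left out.

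**Figure D2:**
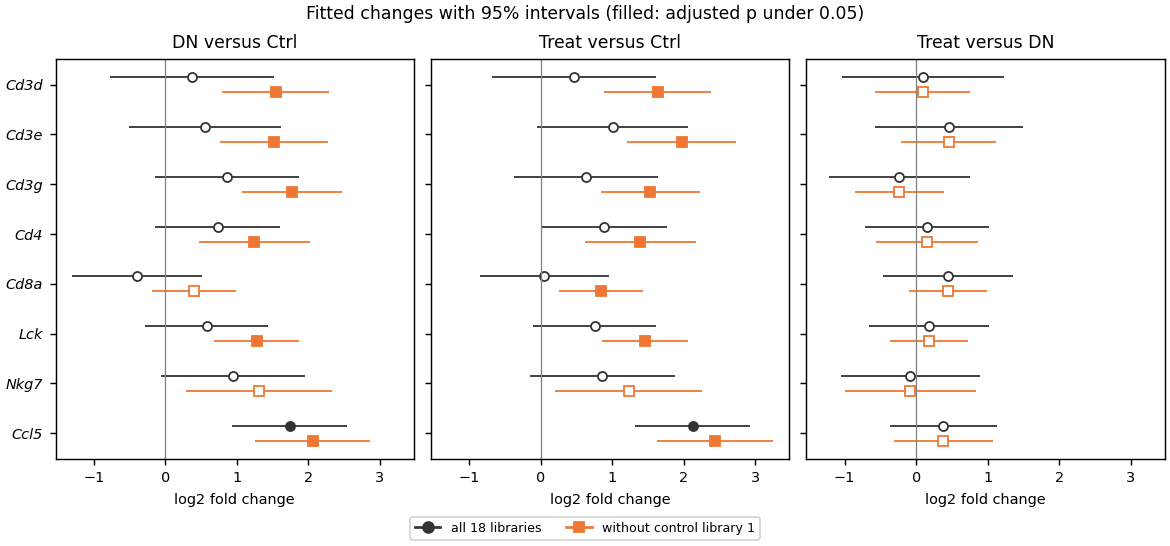
Fitted log2 fold change of each gene in the 3 comparisons with its 95% interval, with all 18 libraries (circles) and without control library 1 (squares); filled symbols have an adjusted p under 0.05. Without that library the fitted values of DN versus Ctrl lie at 0.39 to 2.06, while those of Treat versus DN hardly move.

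The control libraries were also read singly. The 8 genes are not independent of each other, so the genes counted below are not separate results. Control library 1 was told apart from the others after its values had been seen. In control library 4, which stands with the DN and treated libraries in the division of the controls given above, 7 of the 8 genes were below all 6 DN libraries (all but Cd8a), as were 24.7% of all genes, and all 8 were below all 6 treated libraries, as were 25.5% of all genes. In control libraries 2, 5 and 6 the number below all DN libraries was 7 (all but Cd8a in libraries 2 and 5, all but Cd3d in library 6). In control library 3 it was 5 (all but Cd4, Cd8a and Nkg7). The share of all genes was 24.5% to 25.6% in these libraries. In control library 1 the number was 1 (Ccl5), against 24.6% of all genes. In that library 6 of the 8 genes were above all 6 DN libraries, as were 24.2% of all genes. With the division of the controls as a term in the model, which leaves control library 4 as the only reference, the log2 fold changes of DN versus Ctrl were 1.35 for Ccl5 (SE 0.78, edgeR adjusted p = 0.323) and 2.38 for Cd3g (SE 1.05, adjusted p = 0.193), and 0 of the 8 genes were called (1, Cd3g, at an unadjusted p under 0.05), where 5.13% of all genes were called. In that fit the log2 fold changes of the other members were 1.62 for Cd3d, 1.60 for Cd3e, 1.51 for Cd4, 1.37 for Lck, 1.35 for Nkg7 and 0.57 for Cd8a. With 1 library as the reference the SEs were larger, and an absent call does not show an absent change. The division of the controls and the diet and STZ cannot be told apart beyond what this 1 library shows.

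Setting Treat against DN asks whether oral TSK moved these genes in diabetic kidney. None of the 8 genes was called, by edgeR, DESeq2 or limma voom, and 0 had an unadjusted p under 0.05 in edgeR; over all genes 1.39% were called. The median log2 fold change of the 8 was 0.17, against -0.01 over all genes. Ccl5 had its lowest, median and highest values in Treat at 1.34, 2.44 and 4.36 CPM, a wider range than in DN on both sides. Its log2 fold change was 0.38 (95% interval -0.37 to 1.13, edgeR adjusted p = 0.636). A fall of Ccl5 under treatment to below 0.773 of its DN level lies outside this interval.

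Cd3d (0.563, 1.25 and 2.51 CPM for the lowest, median and highest treated library) had a log2 fold change of 0.09 against DN, with an interval of -1.04 to 1.23. Cd3e (0.636, 1.59 and 2.78 CPM) had one of 0.45 (-0.58 to 1.49), and Cd3g (1.46, 2.37 and 4.49 CPM) one of -0.23 (-1.22 to 0.75). For each chain the treated and DN libraries overlapped. Cd4 (1.24, 2.38 and 5.29 CPM) had a log2 fold change of 0.15 (-0.71 to 1.01) and Cd8a (1.39, 2.04 and 3.52 CPM) one of 0.45 (-0.46 to 1.36). Lck (1.84, 2.55 and 5.99 CPM) stood at 0.18 (-0.67 to 1.03) and Nkg7 (0.413, 0.711 and 1.67 CPM) at -0.08 (-1.05 to 0.89). The intervals of all 8 genes hold a 2-fold rise or a 2-fold fall, and those of Cd3d, Cd3g and Nkg7 hold a fall of that size. Control library 1 bears on this comparison through the filter, the scaling and the estimate of the spread. Without it the intervals were narrower: that of Lck was then -0.36 to 0.72 and that of Cd3g -0.86 to 0.38. That library was singled out after its values in these genes had been seen, and the narrower intervals do not allow for this choice.

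The SD of the CPM values was larger in Treat than in DN for all 8 genes (for Lck 1.56 against 0.436 CPM), a difference that was not tested. No share over all genes is set beside this count or the library ranks below, so neither is shown to be particular to these genes. Treated library 2 had the highest value of its group for all 8 genes and treated library 3 the second highest for all 8. The larger SDs of the 8 genes are therefore not independent of each other. Treated libraries 1 and 5 shared the lowest places, with 4 genes each. In DN no library led in this way: DN libraries 2 and 6 were highest for 3 genes each, and DN library 4 was lowest for 5. The summed CPM of Cd3d, Cd3e and Cd3g averaged 5.52 ± 1.18 for DN and 5.61 ± 2.33 for Treat (SD, 6 libraries each), with 9.78 in treated library 2 and 3.64 in treated library 5. Treated library 2 was also the shallowest library, with 22040987 counts, and treated library 3, with 28135824, was the deepest of its group.

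Setting Treat against Ctrl asks how far treated animals remained from the levels of the controls, and it shares its libraries with the other comparisons. Ccl5 was called again, and all 6 treated libraries were above all 6 controls, which held for 11.5% of all genes in this direction. Its log2 fold change was 2.12 (SE 0.39, 95% interval 1.31 to 2.93, edgeR adjusted p = 0.000284), which is 4.35-fold. None of the other 7 was called by edgeR or DESeq2, where edgeR called 44.9% of all genes and 23% were called higher. By limma voom 6 of the 8 were called higher (all but Cd3d and Cd8a), where that test called 27% of all genes higher. With the division of the controls as a term Ccl5 had a log2 fold change of 1.73 (SE 0.79, edgeR adjusted p = 0.168) and 0 of the 8 genes were called (1, Ccl5, at an unadjusted p under 0.05), where 9.68% of all genes were called. Cd4 had a log2 fold change of 0.88 (SE 0.42, adjusted p = 0.0953) and Cd3e one of 1.01 (SE 0.50, adjusted p = 0.112). The lowest treated library of Cd3e, library 1 at 0.636 CPM, lay below control library 5. Cd8a stood at 0.05 (SE 0.43, adjusted p = 0.940).

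Without control library 1, 7 of the 8 genes were called higher in Treat than in Ctrl, where 21.6% of all genes were called higher. Nkg7 was not called, with a log2 fold change of 1.23 (edgeR adjusted p = 0.0512). The groups then did not overlap for 3 of the 8 (Cd3g, Lck and Ccl5), against 12.9% of all genes. As for DN, that library was the highest control for all 8 genes, so these shares of all genes are not a like comparison. Cd3e rose by 1.97 on the log2 scale (SE 0.36, edgeR adjusted p = 0.000451), Cd3d by 1.63 (SE 0.36, adjusted p = 0.00168) and Cd3g by 1.53 (SE 0.33, adjusted p = 0.00145). Cd8a rose by 0.84 (SE 0.28, adjusted p = 0.0227), whereas in DN it was not called without that library. The difference between these 2 results is the Treat versus DN value of Cd8a, which was not called either (0.45, adjusted p = 0.427 without that library). Leaving out treated library 1 in place of a control added Cd4 to the called genes (adjusted p = 0.0494).

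**Figure D3:**
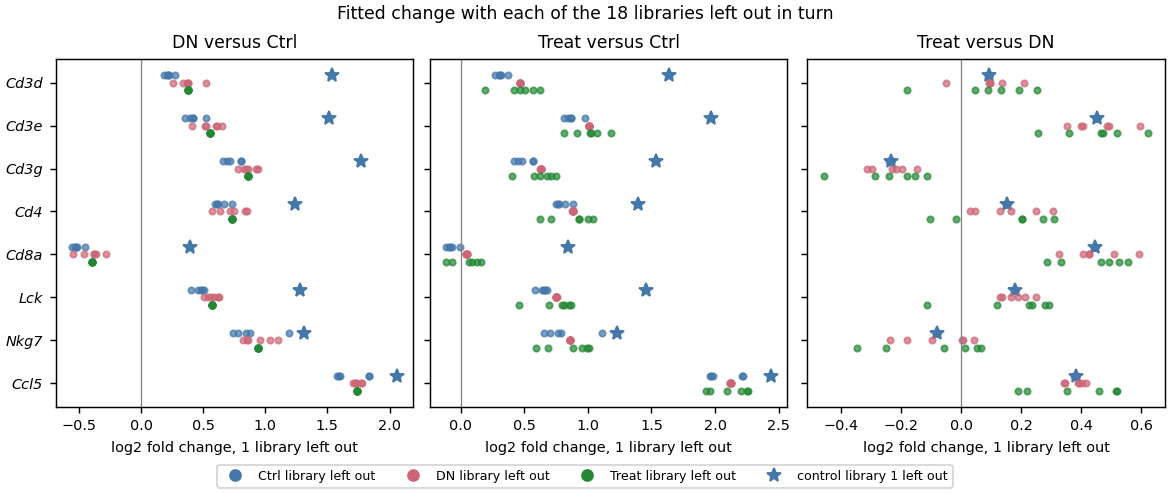
Fitted log2 fold change of each gene when 1 of the 18 libraries is left out, in the 3 comparisons; colours give the group of the library left out and stars mark control library 1. In both comparisons with Ctrl the stars stand to the right of all other points, and for Treat versus DN the values stay between -0.46 and 0.62.

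A ratio of the counts of 2 genes within a library does not depend on the library's total. Such ratios were set up after the values had been seen and are given without a test. The log2 ratio of Cd8a to Cd4 counts averaged 0.33 ± 0.41 for the controls, -0.59 ± 0.67 for DN and -0.22 ± 0.36 for Treat (SD, 6 libraries each). It ranged from -0.36 (library 6) to 0.82 (library 1) in the controls, from -1.83 (library 4) to 0 (library 5) in DN and from -0.58 (library 2) to 0.43 (library 1) in Treat. The groups overlapped: 5 of the 6 controls were above the highest DN library, and control library 6 was within the DN range. The ratio is compared between libraries only, and its sign does not say which of these 2 genes had more RNA. CD4 is also carried by macrophages and dendritic cells in the rat, whose markers could not be read here, so their part in this ratio was not tested.

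The log2 ratio of Ccl5 to the summed counts of the CD3 chains averaged -2.17 ± 0.94 for the controls, -1.41 ± 0.34 for DN and -1.14 ± 0.34 for Treat. It was lowest in control library 1, at -3.31, where the CD3 chains had 337 counts, and highest among the controls in library 4, at -0.79. All 6 DN libraries, at -1.86 to -0.93, lay within the range of the controls. Lck followed the CD3 chains more evenly, with a log2 ratio of -0.69 ± 0.31 for the controls, -1.0 ± 0.33 for DN and -0.89 ± 0.11 for Treat. Nkg7 stood at -2.62 ± 1.05, -2.64 ± 0.49 and -2.77 ± 0.41. The differences between the groups in the Lck and Nkg7 ratios were within about 1 SD of the controls.

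**Figure D4:**
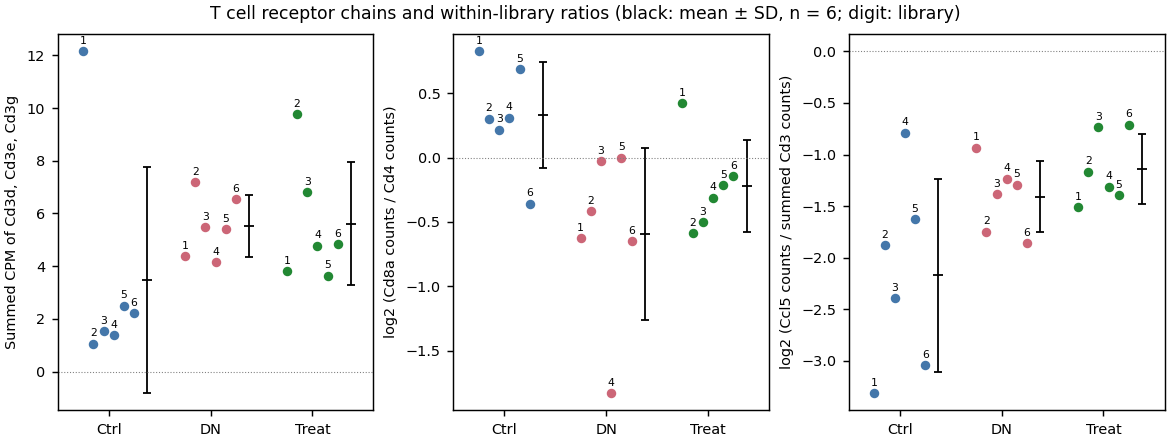
Summed CPM of the CD3 chains (left), log2 ratio of Cd8a to Cd4 counts (middle) and log2 ratio of Ccl5 counts to summed CD3 counts (right) in every library; black bars are the group mean ± SD (n = 6). Control library 1 is highest in the first panel, at 12.2, and lowest in the last.

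The 8 genes were also compared with all other genes tested by how they varied among animals of 1 group. After log2 CPM values were centred within groups, the mean of the 3 CD3 genes was correlated with each of 19230 other genes over the 18 libraries, as a description. Lck ranked 4th (Pearson r = 0.950, Spearman rho = 0.810) and Cd8a 12th (r = 0.914, rho = 0.759), while Cd4 ranked 110th (r = 0.748, rho = 0.498), Ccl5 137th (r = 0.719, rho = 0.657) and Nkg7 181st (r = 0.682, rho = 0.649). The first places were held by ENSMUSG00000052142 (r = 0.964, rho = 0.868) and ENSMUSG00000056290 (r = 0.962, rho = 0.872), which no table used here pairs with a name; over the 17 libraries without control library 1 they were held by ENSMUSG00000027863 (r = 0.904) and ENSMUSG00000045322 (r = 0.897) instead. These values share library depth and rest in part on control library 1. Over the 17 other libraries Lck ranked 5th (r = 0.870), Cd8a 39th (r = 0.740), Ccl5 108th (r = 0.656), Nkg7 142nd (r = 0.633) and Cd4 253rd (r = 0.581).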

How the data were processed

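Kidney polyadenylated RNA was sequenced from 18 animals. Per the labels' protocols, a Qiagen kit was used for RNA and a SMARTER kit for libraries. The authors deposited whole-number counts of each gene in each library, not normalized. Builds were GRCm38 and mm10, per the submitters' processing notes; the aligner, the counter and whether strand was used: not given in the sources used here. The labelled species is rat, and all 55335 identifiers are mouse identifiers (0 found in the rat RefSeq table, assembly GRCr8). If the animals were rats, reads could be lost unevenly between genes, so levels of different genes are not compared within a library. Symbols of the 8 genes are those given with their identifiers in the rule that chose them. The genes, lists and tests were chosen with earlier results of these data known. The rule for named genes took all 8 members, list members with a symbol (0 matched, so no list was tested) and the genes most correlated with the CD3 genes, at most 2 where they have no symbol.

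The tests ran in edgeR 4.0.16 under R 4.3.3: filterByExpr by group (19233 genes), TMM, 1 coefficient per group over all 18 libraries, glmQLFit and glmQLFTest, Benjamini-Hochberg adjustment over all genes, called under 0.05. SEs derive from the F statistics. Log2 CPM used a prior count of 2. The script was tested on simulated data. Alternatives were DESeq2 1.42.0, RLE, library totals, no filter, CPM above 1 in at least 6 libraries, only the 12 libraries compared, a replicate block, limma 3.58.1 voom with quality weights, each library left out, and pairs of libraries left out. The division of the controls as a term and the fit without control libraries 1 and 4 were added after the data had been seen. Each library is 1 animal according to the series description; within groups, every pair differed beyond sampling noise (chi-square of at least 12.9 per degree of freedom).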

Additional observations from a re-analysis of the deposited data

Results flagged for a closer look

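Control library 1 stood apart from the other 5 controls in 6 of the 24 sets of 6 values examined (8 genes in 3 groups), by a gap to the nearest library, relative to the whole range, above Dixon's 95% critical value. By chance about 1 set in 20 is set apart in this way, and the 8 genes are not independent. Cd3d stood at 3.64 CPM in control library 1, with the next control at 0.628. Cd3e stood at 2.89 against 0.739 and Cd3g at 5.63 against 1.35. Cd4 stood at 3.93 against 1.58, Cd8a at 6.96 against 1.83 and Lck at 5.41 against 1.37. No DN or treated library was set apart for any of the 8 genes.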

How the results depend on the processing

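Ccl5 kept its call and direction in 29 of 30 alternatives in DN versus Ctrl and in 29 of 30 in Treat versus Ctrl. The exception in both was the division of the controls as a term, which leaves 1 control library as the reference. In DN versus Ctrl the number of the 8 genes called was 1 with all libraries, 5 by limma voom, 6 without control libraries 1 and 4, and 1 to 6 with single libraries left out. In Treat versus Ctrl it was 1, 6, 7 and 1 to 7 in the same order. In Treat versus DN it was 0 in all 29 alternatives. Library quality weights in limma voom did not single out control library 1 (1.22). The lowest weight was that of treated library 1 (0.275). DN library 5 (0.372), DN library 3 (0.536) and control library 4 (0.581) followed. Treated library 1 also lay far above the other treated libraries for 5% of all genes.

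Of all genes, 6202 were called in DN versus Ctrl and 986 with the division as a term (5103 to 6936 with single libraries left out). In Treat versus Ctrl 8629 were called and 1862 with that term (7909 to 8929). In Treat versus DN 268 were called, against 786 by DESeq2, 775 with library totals, 119 without a filter, 117 with the replicate block, 116 with only the 12 libraries compared, 737 by limma voom, 593 without control library 4 and treated library 1, and 97 to 446 with single libraries left out.

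Same-numbered libraries did not deviate together (correlations of -0.19 to 0.19), so the numbers are not taken as pairs; with the replicate block the 8 genes had the same calls, with Ccl5 at adjusted p = 0.00945 in DN versus Ctrl.

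Signs changed only for values that were not called with all libraries, and the cause was not tested. Cd8a in DN versus Ctrl (-0.40) became 0.39 without control library 1 (-0.56 to 0.39 with single libraries left out), 0.35 without control libraries 1 and 4 and 0.57 with the division as a term. Cd8a in Treat versus Ctrl (0.05) ranged from -0.11 to 0.84 with single libraries left out and was -0.25 without control libraries 4 and 5. In Treat versus DN, values with single libraries left out ranged from -0.18 to 0.25 for Cd3d, from -0.10 to 0.31 for Cd4, from -0.11 to 0.29 for Lck and from -0.35 to 0.067 for Nkg7, and Nkg7 (-0.08) was 0.052 with library totals, 0.20 by limma voom and 0.025 without control library 4 and treated library 1. The 8 genes had 4 to 193 counts per library, which limits the precision of each value.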
